A study of Mus musculus with 14 samples.

Results

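The genes described here are 9 regulators and effectors of the epithelial-mesenchymal transition (EMT), of 23298 genes with a value in mouse embryonic stem (ES) cell lines. They were taken by name: the transcription factors *Zeb1*, *Zeb2*, *Snai1*, *Snai2*, *Twist1* and *Twist2*, and the effectors *Vim* (vimentin), *Cdh2* (N-cadherin) and *Fn1* (fibronectin). All 9 were in the table and passed the filter on low values in every comparison. RNA was sequenced from 14 lines derived from F1 blastocysts of reciprocal crosses between C57BL/6J and CAST/EiJ mice, where BC had a C57BL/6J mother and CB a CAST/EiJ mother. The BC cross gave 3 XX, 3 XY and 2 XO (39,X) lines and the CB cross 3 XX and 3 XY lines, untreated and at early passage. Each line came from 1 embryo, so a group of 2 or 3 lines is the number of embryos it stands for, and the XO lines arose spontaneously. All lines were grown in serum with LIF on a feeder layer of inactivated mouse embryonic fibroblasts, which were depleted in 2 steps before RNA was extracted. The 3 CB XX lines are numbered here by the order of their columns. The values are reads per gene that the authors had scaled to a common depth, called scaled values below.

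EMT is the change by which epithelial cells loosen their junctions and take on a mesenchymal, motile form, as at the primitive streak of the embryo. The Zeb, Snail and Twist factors bind E-box sequences, and the Zeb and Snail factors repress epithelial genes such as *Cdh1* (E-cadherin). ES cells are epithelial-like and make E-cadherin. Fibroblasts make vimentin, N-cadherin, fibronectin and collagen I, and also Zeb, Snail and Twist factors. A feeder fibroblast left in the culture therefore adds RNA of the same genes. How much of the RNA of these genes came from the ES cells themselves was not tested. *Col1a1*, the main chain of collagen I, was used as the measure of feeder RNA in each line.

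RNA of the 10 ES cell markers summed to scaled values from 95064 to 129057 in BC XX lines and from 119803 to 162186 in the other 4 groups. The median was lowest in BC XX lines, at 111723, against 121022 to 147550 in the other groups. All 10 had a mean of at least 10 in every group. Values are scaled to a common depth, so a larger share of 1 kind of RNA leaves less for the rest. *Col1a1* was at 6804, 10132 and 8551 in the BC XX lines, whereas no other line was above 2390. In RNA of a whole culture, more mesenchymal cells and more RNA of these genes per cell cannot be told apart. The 15 fibroblast markers summed to between 58582 and 131728 in BC XX lines and to between 6935 and 32687 in the other 4 groups, and all 15 had a mean of at least 10 in each group. Of these 15, 10 were higher in BC XX than in BC XY lines, where 5.7% of all genes were called in either direction. Y-linked *Uty*, *Ddx3y*, *Eif2s3y* and *Kdm5d* were read as a check of the labels. *Uty* was at 945 to 2088 in BC XY lines and at 1149 in CB XY 1, but at 19.6 in the line labelled CB XY 2 and 45.4 in that labelled CB XY 3, within the range of the XX lines (12.8 to 195). In these 2 lines *Ddx3y* was at 27.0 and 126, against 1085 to 2268 in the other XY lines and 49.7 to 1024 in XX lines. *Eif2s3y* was at 2.46 and 32.5 and *Kdm5d* at 4.91 and 22.1, but neither gene separated the other XY lines from XX lines. In those XY lines *Eif2s3y* was at 40.8 to 255 and *Kdm5d* at 6.02 to 28.7, below BC XX 3 (317 and 123). The main member values of XX against XY and of the CB cross are also given without CB XY 2 and CB XY 3. So are most list genes named as called there, the correlations of members with *Col1a1* and the member slopes printed within groups. Slopes of list genes and correlations among other genes are given only with these 2 lines. Without CB XY 2 and CB XY 3, 4 XY lines remain in XX against XY and 1 line, CB XY 1, in its group. That line is then assumed to vary like the lines of the other groups.

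Promoter sequences are shown because E-boxes are the sites that Snail and Zeb factors bind, and because *Twist2* and *Vim* were higher together in BC XX lines while *Snai1* was not. RefSeq windows of 300 bases (GRCm38.p6, 250 bases before to 50 bases after the transcription start, on the strand of the gene) were read for *Zeb2*, *Snai1*, *Twist1*, *Twist2* and *Vim*, in 8 windows for these 5 genes. The *Snai1* window is chr2:167537945-167538244, plus strand, the *Twist2* window is chr1:91801211-91801510, plus strand, and the *Vim* window is chr2:13574061-13574360, plus strand. Capitals mark the E-box CACCTG or its reverse complement CAGGTG.
Snai1: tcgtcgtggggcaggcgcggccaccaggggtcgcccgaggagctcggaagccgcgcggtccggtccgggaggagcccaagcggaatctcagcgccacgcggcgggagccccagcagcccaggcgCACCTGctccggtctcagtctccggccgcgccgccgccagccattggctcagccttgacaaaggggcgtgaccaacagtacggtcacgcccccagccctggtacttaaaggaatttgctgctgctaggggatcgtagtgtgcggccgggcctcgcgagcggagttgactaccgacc
Twist2: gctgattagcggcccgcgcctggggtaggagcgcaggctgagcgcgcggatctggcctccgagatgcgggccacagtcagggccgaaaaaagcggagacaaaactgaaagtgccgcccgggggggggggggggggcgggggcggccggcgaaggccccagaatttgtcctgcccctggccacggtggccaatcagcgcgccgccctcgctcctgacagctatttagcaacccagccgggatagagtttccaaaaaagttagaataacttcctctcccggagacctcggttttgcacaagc
Vim: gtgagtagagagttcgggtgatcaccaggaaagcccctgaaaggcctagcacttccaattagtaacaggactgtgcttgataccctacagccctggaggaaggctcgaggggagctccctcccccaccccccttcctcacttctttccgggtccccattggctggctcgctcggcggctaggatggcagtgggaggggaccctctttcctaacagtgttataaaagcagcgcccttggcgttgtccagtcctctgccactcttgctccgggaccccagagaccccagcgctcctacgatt
The motif was found in 1 of the 8 windows, that of *Snai1*, with its first base at position -126 from the transcription start. Of 32851 RefSeq promoter windows of this length, 20.2% held CACCTG or CAGGTG, and 72.3% held an E-box of the wider form CANNTG, which includes both. The other 7 windows held no CANNTG. Of these, 4 were of *Zeb2* and overlapped in part, so the windows are not independent. *Twist1*, without the motif, was like *Snai1* not called in BC XX against BC XY. A match describes the letters in the window and not a bound site. *Snai2* and *Fn1* had no entry, and the windows of *Zeb1* and *Cdh2* are not reported here.

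The 9 genes covered a wide span of levels, which were compared between genes only per kilobase of exon. *Fn1* had a median of 5322 and *Vim* one of 5980 scaled values per kilobase over the 14 lines. *Cdh2* followed at 157, *Twist1* at 89.4 and *Zeb1* at 85.9. The median was 48.2 for *Snai1*, 32.1 for *Snai2*, 28.8 for *Twist2* and 19.8 for *Zeb2*. *Vim* and *Fn1* thus lay above *Col1a1*, whose median was 212 and whose highest line was at 1544 per kilobase, in all 14 lines. Between the lowest and the highest line, *Cdh2* spanned 10.8-fold, *Zeb2* 9.56-fold and *Twist2* 9.28-fold, against 3.16-fold for *Twist1* and 3.41-fold for *Snai2*. *Col1a1* itself spanned 27.0-fold. The lowest value of any member was 13.4 (*Twist2* in BC XY 3), above the 3-read level of every line, which reached 7.37.

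**Figure D1:**
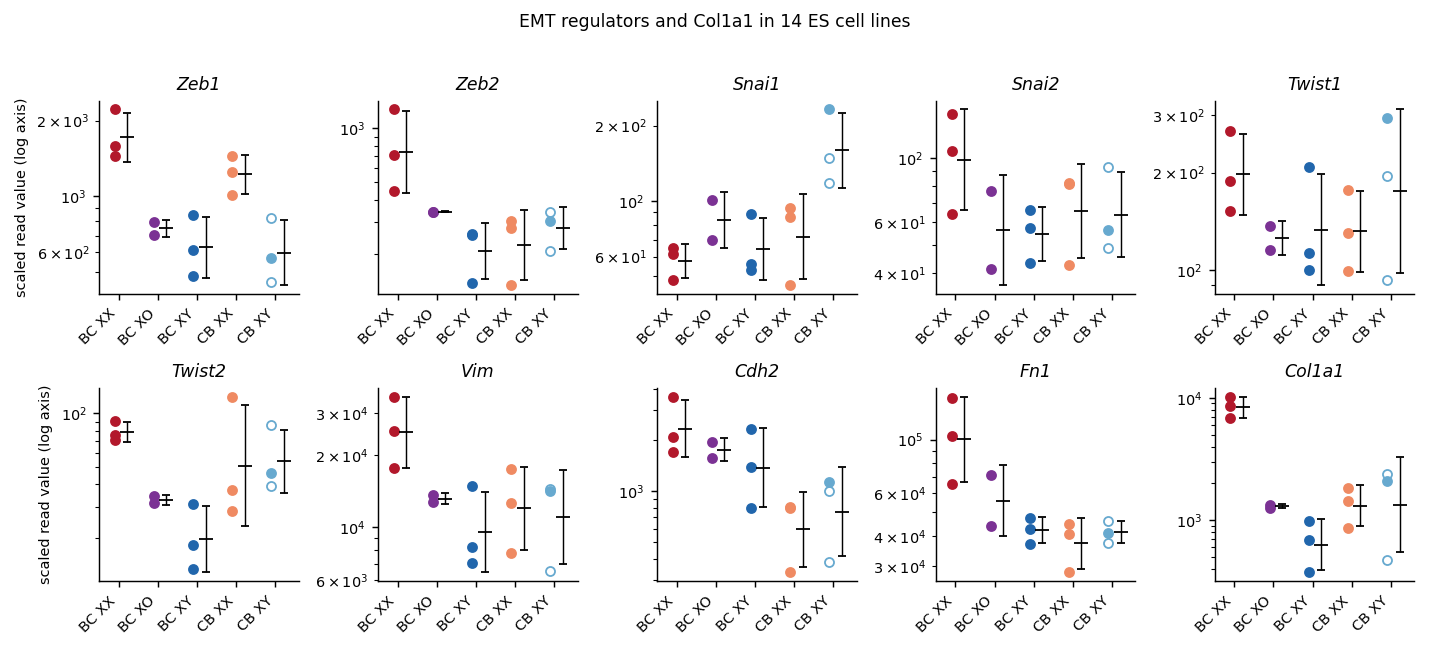
Scaled value of each of the 9 EMT genes and of Col1a1 (log axes) in the 14 lines, 1 point per line, with the geometric mean and 1 SD of the log values beside each group. Open circles are CB XY 2 and CB XY 3, whose Y-linked RNA was not above that of XX lines. The 6 XX lines of Zeb1 (1013 to 2218) lie above all 8 other lines, and the 3 BC XX lines of Col1a1 stand above every other line.

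*Zeb1*, a zinc finger repressor of epithelial genes (chromosome 18, 5591858 to 5775465, plus strand, mm9), was the one member higher in XX lines of both crosses. It was at 1451, 1581 and 2218 in BC XX lines and at 482, 611 and 843 in BC XY lines. CB XX lines had 1013, 1250 and 1449, and the lines labelled CB XY 1, 2 and 3 had 567, 459 and 824. The lowest XX line was above the highest line labelled XY, and the BC XO lines, at 706 and 791, lay among the XY lines. The log2 fold change of XX over XY lines was 1.24 ± 0.20 (SE, 6 lines each, limma adjusted p = 0.00361), and it was 1.24 (adjusted p = 0.0134) without CB XY 2 and CB XY 3. Within the crosses it was 1.44 ± 0.25 in BC (adjusted p = 0.00655) and 1.03 ± 0.25 in CB (adjusted p = 0.0388). The CB value was 1.10 (adjusted p = 0.173) when CB XY 1 stood alone against the 3 CB XX lines. BC XX exceeded BC XO lines by 1.20 ± 0.28 (adjusted p = 0.0346), and BC XO and BC XY lines differed by 0.25 (95% interval -0.36 to 0.85). *Zeb1*, *Zeb2* and *Fn1* overlap genes of the opposite strand in the annotation (*Gm10125*, *Gm13476* and *Apol7d*), and whether reads were counted by strand is not given in the sources used here.

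In the CB cross *Col1a1* did not separate the sexes. It was at 870, 1823 and 1449 in CB XX lines and at 2092, 476 and 2390 in the lines labelled CB XY. The log2 fold change of *Col1a1* was -0.02 (95% interval -1.08 to 1.05), and -0.66 with CB XY 1 as the 1 CB XY line. With the *Col1a1* level as a covariate the CB difference in *Zeb1* was 1.03 (adjusted p = 0.0329). With the mean level of the other 14 fibroblast markers it was 0.95 (adjusted p = 0.0452). These CB fits were not run without CB XY 2 and CB XY 3. Over all XX and XY lines the difference was 0.98 (adjusted p = 0.0466) with *Col1a1* and 0.90 (adjusted p = 0.063) with the fibroblast markers. Without CB XY 2 and CB XY 3 these values were 1.04 (adjusted p = 0.0719) and 0.96 (adjusted p = 0.074). In the BC cross, the lines of high *Col1a1* are the XX lines themselves, so that the group and feeder RNA cannot be told apart there. The sex difference in *Zeb1* differed between the crosses by 0.42 (95% interval -0.35 to 1.18, adjusted p = 0.785).

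*Zeb2*, the paralogue of *Zeb1* (chromosome 2, 44839154 to 44972915, minus strand, mm9), followed another pattern. It was at 446, 714 and 1278 in BC XX lines, at 343 and 344 in BC XO lines and at 257, 254 and 137 in BC XY lines. These 3 groups did not overlap, in the order XX, XO and XY. CB XX lines had 134, 279 and 303 and the lines labelled CB XY had 305, 206 and 343, which overlap. *Zeb2* was higher in BC XX than in BC XY lines by 1.81 ± 0.39 on the log2 scale (adjusted p = 0.0166), whereas in CB the value was -0.30 ± 0.39 (adjusted p = 0.728). The difference between the crosses was 2.11 ± 0.55 (unadjusted p = 0.00177, adjusted p = 0.242), which did not pass the threshold over all genes. Of the 5 groups, BC XX was highest. The neighbouring CB XY and CB XX groups and the neighbouring CB XX and BC XY groups overlapped.

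*Snai1* (chromosome 2, 167363695 to 167368314, plus strand, mm9), which encodes the zinc finger repressor Snail, had its highest values in the lines labelled CB XY. They were at 232, 118 and 148, and every other line was at or below 100.5. CB XX lines were at 93.8, 86.5 and 46.2, so that the CB groups did not overlap. The log2 fold change was -1.09 ± 0.33 (adjusted p = 0.0879), which missed the threshold. In the BC cross the 3 groups were at 48.2, 61.5 and 64.8 (XX), 100.5 and 69.7 (XO) and 56.2, 88.9 and 52.9 (XY), and the XX and XY lines overlapped. The BC XX lines, which had the highest *Col1a1*, had the lowest group mean of *Snai1*. With CB XY 1 as the 1 CB XY line the CB value was -1.62 (adjusted p = 0.138).

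*Snai2* (Slug, chromosome 16, 14705945 to 14709488, plus strand, mm9) is the close relative of *Snai1*. It was at 64.3, 106 and 141 in BC XX lines and at 66.2, 57.4 and 43.5 in BC XY lines. CB XX lines were at 42.6, 81.6 and 81.8, the lines labelled CB XY at 56.5, 49.1 and 93.5, and BC XO lines at 41.5 and 76.8. All neighbouring groups overlapped, and *Snai2* was not called in any comparison of groups (BC XX against BC XY 0.80 ± 0.36, adjusted p = 0.208).

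*Twist1* and *Twist2* encode basic helix-loop-helix factors of mesoderm and mesenchyme. *Twist2* (chromosome 1, 93698038 to 93744605, plus strand, mm9) was at 70.8, 75.7 and 90.4 in BC XX lines, at 34.3 and 31.3 in BC XO lines and at 31.2, 18.3 and 13.4 in BC XY lines. As for *Zeb2*, these groups did not overlap, and BC XX exceeded BC XY lines by 1.74 ± 0.44 on the log2 scale (adjusted p = 0.0356). The highest *Twist2* value of all was that of CB XX 2, at 124, with CB XX 1 and CB XX 3 at 28.4 and 37.3. *Twist1* (chromosome 12, 34642536 to 34644682, plus strand, mm9) was at 188, 152 and 268 in BC XX lines and at 209, 113 and 100.4 in BC XY lines. Its highest value, 295, was that of CB XY 1. *Twist1* was not called in any comparison of groups, and the BC XX against BC XY value was 0.55 ± 0.39 (adjusted p = 0.434).

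Among the effectors, *Vim*, the intermediate filament protein of mesenchymal cells (chromosome 2, 13495554 to 13504453, plus strand, mm9), was at 17662, 25203 and 35125 in BC XX lines. BC XY lines had 14856, 8296 and 7098 and BC XO lines 13683 and 12725. The lines of the CB cross ranged from 6555 to 17477 with the sexes overlapping. *Vim* was higher in BC XX than in BC XY lines by 1.39 ± 0.37 on the log2 scale (adjusted p = 0.0408). *Fn1*, a fibronectin of the extracellular matrix (chromosome 1, 71632094 to 71699774, minus strand, mm9), was at 65534, 103410 and 148162 in BC XX lines and at 42628, 37131 and 47486 in BC XY lines, a log2 fold change of 1.25 ± 0.27 (adjusted p = 0.0159). The CB lines ranged from 28224 to 46022, and the CB XX and CB XY values overlapped. BC XO 1, at 71144, was above the lowest BC XX line, and BC XO 2 was at 43970.

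*Cdh2*, the adhesion protein that mesenchymal and neural cells carry in place of E-cadherin (chromosome 18, 16747386 to 16967755, minus strand, mm9), did not separate the sexes in either cross. It was at 1704, 2070 and 3593 in BC XX lines, at 2328, 1388 and 795 in BC XY lines and at 1955 and 1572 in BC XO lines. CB XX lines had 333, 807 and 793, and the lines labelled CB XY had 1137, 381 and 1001. BC XX and CB XX lines did not overlap. The log2 fold change of BC XX over BC XY lines was 0.76 ± 0.47 (adjusted p = 0.353).

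Counted over the members, 1 of 9 was called in XX against XY (*Zeb1*), where 5.21% of 15311 genes were called. In BC XX against BC XY, 5 of 9 were called, all higher in XX (*Zeb1*, *Zeb2*, *Twist2*, *Vim* and *Fn1*), against 5.7% of 16261 genes. The median log2 fold change of the 9 was 1.25 there, and that of all genes was -0.04. In CB XX against CB XY, *Zeb1* was the 1 gene called, with 3.57% of genes called and a median of -0.15 over the 9. BC XX against BC XO also gave 1 of 9 (*Zeb1*), with 4.66% of genes called. BC XO against BC XY gave 0 of 9 by limma, with 0 of 9 at an unadjusted p under 0.05 and 0.00615% of genes called. The interaction of sex and cross gave 0 of 9 by limma, with 0.0738% of genes called. *Zeb2*, *Twist2*, *Vim* and *Fn1*, 4 of the 9, were at an unadjusted p under 0.05 in the interaction. The comparisons within BC share lines and are not independent of each other.

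**Figure D2:**
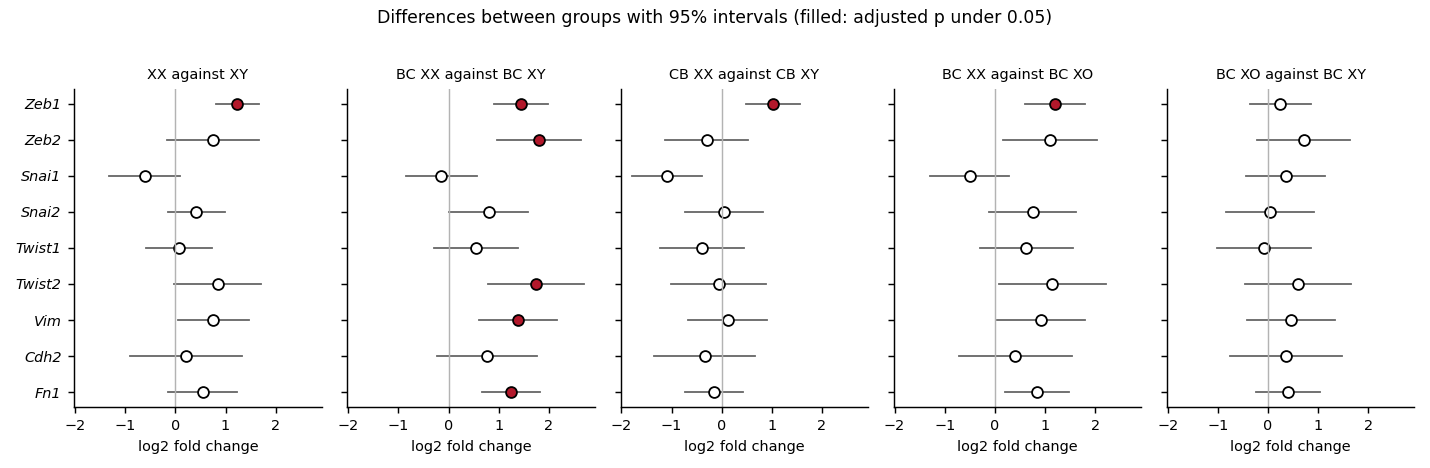
Log2 fold change of the 9 EMT genes (rows) in 5 comparisons (panels), with 95% intervals from limma, where filled points have an adjusted p under 0.05. Zeb1 is filled in 4 panels, at 1.24, 1.44, 1.03 and 1.20, and the 4 other filled points are those of Zeb2, Twist2, Vim and Fn1 in BC XX against BC XY.

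Lines of the groups did not overlap for 1 member in XX against XY (*Zeb1*), which held for 3.52% of genes. In BC XX against BC XY the 5 called members did not overlap, as for 27.1% of genes. In CB XX against CB XY, *Zeb1* was higher and *Snai1* lower without overlap, 2 of 9, as were 23.2% of genes in either direction. In BC XX against BC XO, 5 members were higher and *Snai1* was lower, 6 of 9, and 47.2% of genes did not overlap. *Zeb2* and *Twist2* did not overlap in BC XO against BC XY, against 17.6% of genes.

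Leaving out 1 line at a time, the BC values stayed above 0 for the 5 members, at 1.42 to 2.17 for *Zeb2*, 1.52 to 2.01 for *Twist2*, 1.14 to 1.70 for *Vim* and 0.96 to 1.55 for *Fn1*, but the adjusted p crossed the threshold in several fits. Without BC XX 2, BC XX 3 or BC XY 2, 1 of the 5 was called, which was *Zeb1*, and without BC XY 3 the calls were *Zeb1* and *Fn1*. *Twist2* was lost without BC XX 1 (adjusted p = 0.0538), and *Vim* without BC XO 1 (0.0561) or BC XO 2 (0.0564). *Zeb1* was called in all 14 fits that left out 1 line (adjusted p up to 0.0394). Its CB call was lost in 8 of the 14, among them each fit without CB XX 2, CB XX 3, CB XY 1 or CB XY 2 (adjusted p up to 0.157), and the other 4 were those without BC XX 2, BC XY 2, BC XO 1 or BC XO 2. The BC XX against BC XO call was lost without BC XX 2, BC XX 3, BC XY 2, BC XO 1 or BC XO 2 (adjusted p up to 0.264).

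The members were then set against *Col1a1* line by line. The BC XX lines form a cluster of their own in *Col1a1*, so that correlations are given over the 11 other lines. There *Vim* rose with *Col1a1* (Pearson r = 0.877, permutation p = 0.00058; Spearman rho = 0.764, p = 0.00892), as did *Twist2* (r = 0.750, permutation p = 0.00728; rho = 0.773, p = 0.00753), *Zeb2* (r = 0.749, permutation p = 0.00873; rho = 0.718, p = 0.0163) and *Twist1* (r = 0.746, permutation p = 0.00829; rho = 0.791, p = 0.0056). For *Snai2* r was 0.659 (permutation p = 0.0295; rho = 0.636, p = 0.0396). *Zeb1* (r = 0.318, permutation p = 0.338; rho = 0.264, p = 0.436), *Snai1* (r = 0.410, permutation p = 0.21; rho = 0.309, p = 0.356), *Cdh2* (r = 0.313, permutation p = 0.348; rho = 0.209, p = 0.539) and *Fn1* (r = -0.261, permutation p = 0.45; rho = -0.409, p = 0.216) had p above 0.05. These 9 relations were tested two-sided and their p values are not adjusted. The permutations ignored the groups, so these r and p hold differences between groups as well as between lines of 1 group. Between deviations of these 11 lines from their group means, r was 0.92 for *Vim*, 0.93 for *Cdh2*, 0.27 for *Zeb1* and -0.44 for *Fn1*. Without BC XY 3 and CB XY 2, the 2 lines farthest from the median of *Col1a1*, r was 0.749 for *Vim*, 0.816 for *Twist2*, 0.570 for *Zeb2*, 0.661 for *Twist1*, 0.543 for *Snai2*, 0.240 for *Zeb1*, 0.487 for *Snai1*, -0.04 for *Cdh2* and -0.16 for *Fn1*. Over the 9 lines without BC XX, CB XY 2 and CB XY 3, by exact permutation, r was 0.850 for *Vim* (p = 0.00233), 0.817 for *Twist2* (0.0102), 0.734 for *Zeb2* (0.028), 0.669 for *Twist1* (0.0479), 0.536 for *Snai2* (0.133), 0.144 for *Zeb1* (0.717), 0.483 for *Snai1* (0.19), 0.141 for *Cdh2* (0.709) and -0.17 for *Fn1* (0.659). The lines share their culture and depletion steps, and whether feeder RNA sets these levels was not tested.

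**Figure D3:**
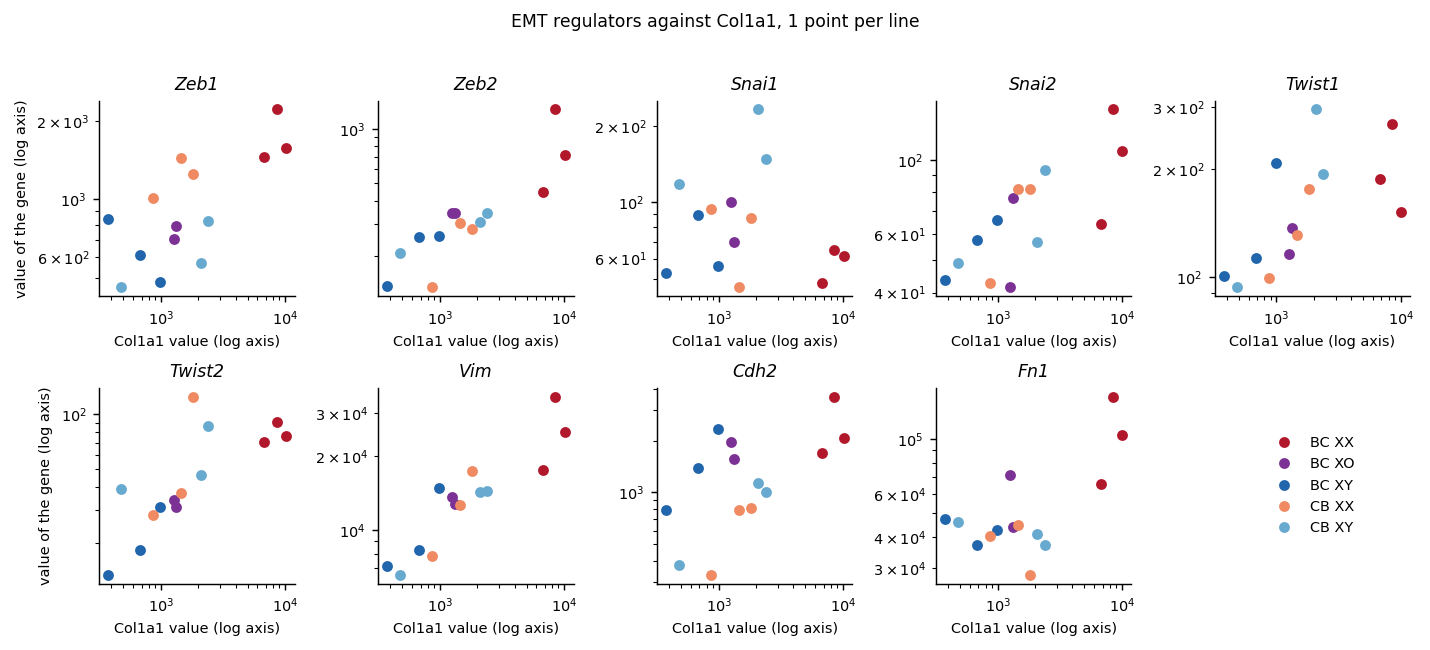
Scaled value of each EMT gene against that of Col1a1 (both axes log), 1 point per line, coloured by group. The 3 BC XX points lie at the right of each panel, with Col1a1 from 6804 to 10132. Over the 11 other lines Vim follows Col1a1 (r = 0.877), and Fn1 does not (r = -0.261).

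A slope on *Col1a1* within groups was fitted over the 14 lines with the 5 groups as terms, in log2 of the gene per log2 of *Col1a1*. *Cdh2* (0.81 ± 0.14, adjusted p = 0.0154) and *Vim* (0.63 ± 0.11, adjusted p = 0.0163) were called, 2 of 9, against 1.32% of 16260 genes. *Cdh2* thus varied with *Col1a1* among lines of 1 group although its XX and XY lines overlapped in both crosses, with r = 0.870 between the deviations of lines from their group means. Both calls were lost without BC XY 1 (adjusted p = 0.0507 for *Cdh2* and 0.0574 for *Vim*) and without CB XY 2 (0.0707 and 0.073). Without CB XY 2 and CB XY 3 together, 0 of 9 were called by limma, with 33 of all genes called, and the slopes were 1.11 for *Cdh2* (adjusted p = 0.106) and 0.86 for *Vim* (adjusted p = 0.116). Over the 14 lines *Twist1* had 0.58 ± 0.15 (adjusted p = 0.0797) and *Zeb2* 0.49 ± 0.17 (adjusted p = 0.19). The slope was 0.12 ± 0.14 for *Zeb1* (95% interval -0.17 to 0.41) and -0.11 ± 0.15 for *Fn1* (-0.42 to 0.21). Without CB XY 2 and CB XY 3 these slopes were 0.59 for *Twist1*, 0.88 for *Zeb2*, -0.17 for *Zeb1* and -0.10 for *Fn1*. Without the group terms, 6 of 9 were called over the 14 lines (*Zeb1*, *Zeb2*, *Snai2*, *Twist2*, *Vim* and *Fn1*), with 8.76% of genes called, but 1 was called (*Vim*) without the BC XX lines and 4 (*Zeb2*, *Twist2*, *Vim* and *Fn1*) without CB XY 2 and CB XY 3. With the mean of the other fibroblast markers in place of *Col1a1*, 4 were called within groups, as were 709 of all genes against 215 with *Col1a1*, with *Zeb2* (0.70, adjusted p = 0.0056) and *Snai2* (0.56, adjusted p = 0.0477) added. That mean and *Col1a1* had r = 0.963 over the 14 lines.

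The ratio of a member to *Col1a1* differed in span between members. It depends largely on *Col1a1* itself, which spanned 27.0-fold over the lines, against at most 10.8-fold for a member. For *Fn1* the ratio ran from 9.63 in BC XX 1 to 126 in BC XY 3, and for *Vim* from 2.49 in BC XX 2 to 18.9 in BC XY 3. *Snai1* spanned 40.8-fold in this ratio and *Zeb2* 6.61-fold, the widest and the narrowest of the 9. The median ratio was lower in BC XX lines than in any other group for all 9 genes, which their high *Col1a1* alone would tend to give. With *Col1a1* as a covariate none of the 9 was called in BC XX against BC XY by limma, and 5 of all genes tested were. The value was then 1.64 for *Fn1* (adjusted p = 0.446), 1.00 for *Zeb1* (adjusted p = 0.619), -0.02 for *Zeb2*, -0.21 for *Twist2* and -0.95 for *Vim*.

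Other genes of the EMT programme were read from lists. Of all genes, 5.7% were called in BC XX against BC XY, 3.57% in CB and 5.21% in XX against XY. Of 12 other EMT transcription regulators, 1 was higher in BC XX than in BC XY lines, *Prrx1*, a homeobox gene of limb mesenchyme (2.12 ± 0.56, adjusted p = 0.0408). It was at 761, 1259 and 2783 in BC XX lines and at 587, 332 and 160 in BC XY lines. Its slope on *Col1a1* within groups was called too (0.92 ± 0.19, adjusted p = 0.032), in the fit that held CB XY 2 and CB XY 3. In CB the 1 gene called was *Klf8*, an X-linked Krüppel-like factor named after its values were seen (1.02 ± 0.17, adjusted p = 0.00719). The median of the 12 was 0.71 in BC and -0.0045 in CB. A count of 1 of 12 is near the share of all genes called in either cross. *Klf8* had an adjusted p of 0.0658 without CB XY 2 and CB XY 3. Of 17 other mesenchymal genes, 12 were higher in BC XX than in BC XY lines and 0 were called in CB by limma, where 1 (*Sparc*) had an unadjusted p under 0.05. Smooth muscle actin *Acta2* (4.45 ± 0.69), the collagen cross-linking enzyme *Lox* (3.74 ± 0.66) and the matrix protein *Tnc* (3.66 ± 0.58) had the largest differences, with adjusted p of 0.00346, 0.00655 and 0.00402. The fibroblast list was alike in this, with 10 of 15 higher in BC and 0 called in CB by limma (0 also at an unadjusted p under 0.05), led by *Postn* (6.07 ± 0.71), *Col5a2* (4.80 ± 0.76) and *Col3a1* (4.19 ± 0.81).

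Of the TGF-beta ligands, which induce EMT in epithelial cells, *Tgfb3* was higher by 3.07 ± 0.57 (adjusted p = 0.00858) and *Tgfb2* by 1.71 ± 0.41 (adjusted p = 0.0279) in BC XX lines, 2 of the 10 genes of the list, and *Tgfb1* was at -0.35 ± 0.34 (adjusted p = 0.568). In CB, *Tgfb1* was lower in XX lines by limma (-1.32 ± 0.34, adjusted p = 0.0448, named after its values were seen), and it was not called without CB XY 2 and CB XY 3 (adjusted p = 0.198). The slope on *Col1a1* within groups was called for *Tgfb3* (0.95 ± 0.19) and the receptor gene *Tgfbr2* (1.07 ± 0.16). Both slopes are from the fit that held CB XY 2 and CB XY 3.

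Genes of epithelial junctions and their regulators gave calls of the opposite sign. Of 22, 4 were lower in XX than in XY lines and 0 higher, where 5.21% of all genes were called. They were *Crb3* (-1.52 ± 0.31), *Cldn7* (-1.30 ± 0.28), *Esrp1* (-1.14 ± 0.26) and *Prss8* (-1.02 ± 0.24), which encode a polarity protein, a claudin, an epithelial splicing regulator and a membrane protease and were named after their values were seen. The median of the 22 was -0.73, against -0.03 for all genes. In BC, 1 was lower (*Tjp3*, a tight junction protein, -1.65 ± 0.41, adjusted p = 0.0317), and in CB 3 were (*Cldn6*, *Cldn7* and *Esrp1*). The 1 of 22 in BC is near the share of all genes called there (5.7%), and in CB that share was 3.57%. Without CB XY 2 and CB XY 3, 0 of the 22 were called by limma in CB, with 1 CB XY line, or in XX against XY, with 4 XY lines, where the 4 genes had adjusted p from 0.057 (*Crb3*) to 0.0673 (*Esrp1*) and values from -1.37 (*Crb3*) to -1.09 (*Prss8*). *Cdh1* was at 8144, 10376 and 8454 in BC XX lines, at 10570, 18115 and 16766 in BC XY lines, at 9283, 6467 and 14003 in CB XX lines and at 14179, 17345 and 11665 in the lines labelled CB XY. Its log2 fold change in XX against XY was -0.66 ± 0.18 (adjusted p = 0.0553). The summed ES cell markers had their lowest group median in BC XX lines (111723) and their highest in CB XX lines (147550). Whether the share of ES cell RNA bears on the epithelial values was not tested. By limma 0 of the 22 had a called slope on *Col1a1* within groups, and 4 had an unadjusted p under 0.05.

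**Figure D4:**
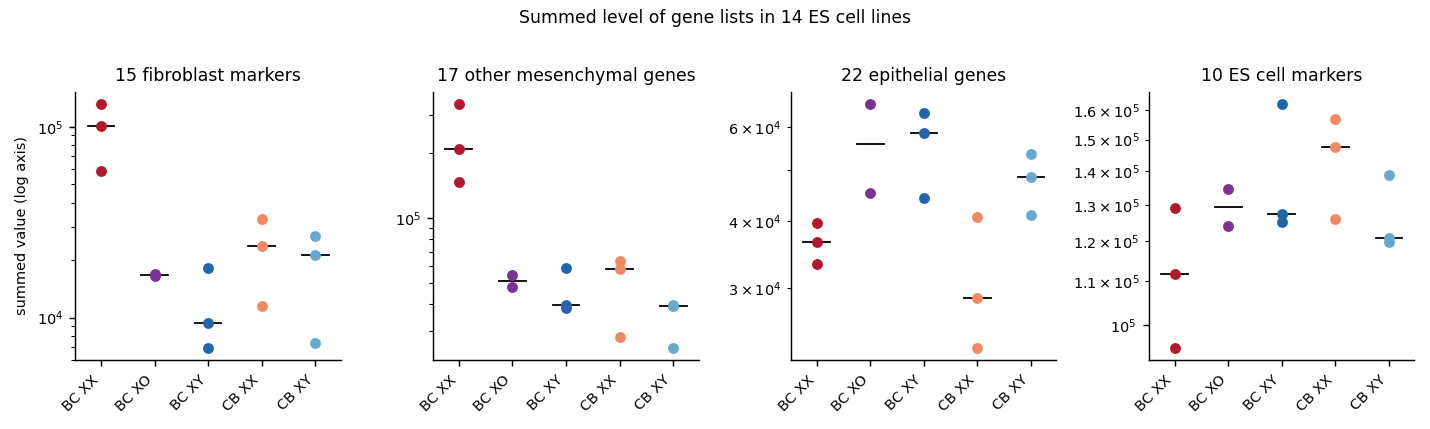
Summed scaled value (log axes, each with its own range) of 4 gene lists in the 14 lines, 1 point per line, with a bar at the group median. BC XX lines are highest for fibroblast markers (58582 to 131728) and for the other mesenchymal genes (147204 to 338625), and XX lines of both crosses have the lowest medians of the epithelial genes (36568 in BC and 28727 in CB).

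Markers of other lineages were read beside these. In BC XX lines, 2 of 10 genes of primitive and parietal endoderm were higher than in BC XY lines, the basement membrane collagens *Col4a2* (2.02 ± 0.32) and *Col4a1* (1.72 ± 0.30). Like *Col1a1*, both were higher in each BC XX line than in any other line. The others of the list were not called and went both ways, with a list median of 0.62 against -0.04 for all genes. *Dab2* was at 283, 420 and 602 in BC XX and at 72.4, 211 and 254 in BC XY lines. *Gata4* and *Lama1* went the other way. *Gata4* was at 85.7, 75.7 and 136 in BC XX and at 216, 230 and 446 in BC XY lines. *Lama1* was at 2694, 2899 and 2652 in BC XX and at 4857, 4705 and 7879 in BC XY lines. Of the same list *Foxa2*, a forkhead factor of endoderm, was lower in CB XX lines (-2.14 ± 0.53, adjusted p = 0.0383), and *Lama1*, a laminin chain, was lower in XX than in XY lines (-0.95 ± 0.24, adjusted p = 0.0392), both named after their values were seen. Without CB XY 2 and CB XY 3 the *Foxa2* value was -3.07 (adjusted p = 0.0293) and the *Lama1* value was -0.72 (adjusted p = 0.157), while the endoderm factor *Gata4* was called in XX against XY (-2.19, adjusted p = 0.0389). Of 8 genes of the primitive streak, where EMT takes place in the embryo, 7 were tested within the crosses. By limma 0 were called in BC (2 at an unadjusted p under 0.05), and 3 were lower in CB XX lines, *Fgf8*, *T* and *Wnt3*. With CB XY 1 as the 1 CB XY line the 3 called were *Eomes*, *Fgf8* and *Wnt3*, the *T* value being -4.37 (adjusted p = 0.126). *Wnt3*, the 1 gene of this list called in XX against XY (-1.68 ± 0.43, adjusted p = 0.0361), was at 81.5 to 136 in BC XX, 161 to 421 in BC XY, 21.3 to 68.4 in CB XX lines and 90.9 to 355 in the lines labelled CB XY. Of the 8 neural genes, 6 were tested and 0 called in either cross by limma, with 2 in BC and 0 in CB at an unadjusted p under 0.05. Of the 10 ES cell genes 0 were called by limma, with 1 in each cross at an unadjusted p under 0.05.

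Among themselves, *Vim* and *Zeb2* were the most alike of the 9 over the 14 lines (Pearson r = 0.91 of the log2 values), followed by *Vim* with *Snai2* (0.82) and *Zeb2* with *Snai2* (0.82). *Snai1* had negative r with 6 of the other 8 members, the lowest with *Zeb1* (-0.50). These are descriptions over lines that share groups and feeder RNA.

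The genes most like each member over the 14 lines, by Pearson r among 16260 genes, are given with the r of some of them with *Col1a1*. *Ammecr1*, an X-linked gene, was nearest to *Zeb1* (r = 0.961), followed by *Stox2* (0.936) and *Tnfrsf23* (0.936), and their r with *Col1a1* was 0.757, 0.781 and 0.792. For *Zeb2* they were *Ccnd2* (0.968), *Slc2a13* (0.964) and *Wisp1* (0.959), whose r with *Col1a1* was 0.906, 0.941 and 0.905. *Vim* was closest to *Itpripl2* (0.981), *Cacna1c* (0.979) and *Antxr2* (0.975), and *Snai2* to *Rnf150* (0.930), *Abi3bp* (0.925) and *Gfra1* (0.918). *Twist1* had *Chst7* (0.886), *Hoxb3* (0.845) and *Hoxd12* (0.841), and *Twist2* had *Loxl1* (0.952), *Hoxa7* (0.938) and *Trio* (0.930). *Cdh2* was followed by another cadherin gene, *Cdh6* (0.955), then *Bmper* (0.950) and *Leprel1* (0.947). The nearest genes to *Fn1* were *Carf* (0.921), *Nedd9* (0.917) and *Gm10791* (0.916). For *Snai1*, *Nisch* (0.938), *2310068J16Rik* (0.905) and *C1qa* (0.900) were nearest, and their r with *Col1a1* was -0.29, -0.12 and -0.23.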

How the data were processed

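RNA from 14 ES cell lines was read single-end from stranded libraries of total RNA. According to the submitters' processing notes and the methods, reads were aligned to mm9 with TopHat2 and compared with Cuffdiff. The deposited values are a read signal per gene that the authors had scaled to a common depth, summing to 28150946 to 30657803 per line. In each line 98.5% to 98.9% of values up to 200 steps were whole multiples of 1 step (tolerance 0.1 of a step). With 1 step as 1 read the lines held 11904421 to 69646272 reads, and 3 reads was taken as the floor, for counting error only. A deeper line has less counting error.

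Values were used as log2(value + 5), on which folds of low genes are understated, and tested with limma 3.58.1 in R 4.3.3 (trended variance, Benjamini-Hochberg adjustment over all genes, FDR 0.05). Genes needed a value of 10 in at least 6 lines for XX against XY, or 2 in a model of 5 groups. Left out were 15 genes listed at 0 throughout a group and at 100 or more elsewhere, none of them a member. Correlations used 100000 permutations (Python 3.11.15). The limma comparisons, the interaction and the slopes on *Col1a1* were run on simulated data as a check. The correlations and the covariate and block fits were not. Intervals cover 95%, and p-values measure the spread between lines, each from 1 embryo. Replicate numbers are column numbers and pair no lines: same-numbered lines correlated at -0.49 to 0.27 (median 0.016). Libraries were prepared in batches that the sources do not assign to lines.

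Named are the members, *Col1a1*, Y-linked genes, the 3 genes most like each member, and of each list up to 3 genes per direction with the largest change past the threshold in BC, or else in XX against XY. The members and lists were chosen with earlier results of these data known. Coordinates are from the mm9 annotation. Alternatives were other pseudocounts, filters and scalings, covariates, a replicate block, and lines left out. The fibroblast marker covariate, and the slopes, correlations and covariate fits without CB XY 2 and CB XY 3, were chosen after seeing the data. Correlations over fewer than 10 lines used all pairings.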

Additional observations from a re-analysis of the deposited data

How the results depend on the processing

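Of 1692 values of a member under an alternative, 1506 kept their direction and their side of the threshold, 75 kept the direction but lost the threshold, 11 gained it and 100 changed sign, 1 of them past the threshold after the change by limma (*Cdh2*, given below). None of the 100 came from the 3 other scalings, and 66 came from the feeder covariates. The largest shift of the median of all genes under a scaling was -0.07, in the interaction. The cause of these changes was not tested, except that fits on fewer lines have fewer degrees of freedom.

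With *Col1a1* as a covariate, 0 members were called in BC XX against BC XY and 0 in BC XX against BC XO. Signs changed in XX against XY for *Zeb2* (-0.30), *Snai2* (-0.059), *Twist1* (-0.54), *Vim* (-0.0697), *Cdh2* (-0.91) and *Fn1* (-0.0022), in BC XX against BC XY for *Zeb2* (-0.022), *Snai2* (-0.68), *Twist1* (-1.61), *Twist2* (-0.21), *Vim* (-0.95) and *Cdh2* (-2.25), and in BC XX against BC XO for *Zeb2* (-0.22), *Snai2* (-0.31), *Twist1* (-0.93), *Twist2* (-0.26), *Vim* (-0.77) and *Cdh2* (-1.77). They also changed in BC XO against BC XY for *Snai2* (-0.37), *Vim* (-0.19) and *Cdh2* (-0.48), and in the interaction for *Zeb1* (-0.028), *Snai2* (-0.73), *Twist1* (-1.22), *Twist2* (-0.16), *Vim* (-1.08) and *Cdh2* (-1.93). With the fibroblast marker level as the covariate, 0 members were called in XX against XY, BC XX against BC XY and BC XX against BC XO. Signs changed in XX against XY for *Zeb2* (-0.54), *Snai2* (-0.25), *Twist1* (-0.65), *Twist2* (-0.028), *Vim* (-0.27), *Cdh2* (-1.19) and *Fn1* (-0.088), in BC XX against BC XY for *Zeb2* (-0.082), *Snai2* (-0.73), *Twist1* (-1.07), *Vim* (-0.63) and *Cdh2* (-1.76), and in CB for *Snai2* (-0.18) and *Vim* (-0.18). In BC XX against BC XO they were *Zeb2* (-0.29), *Snai2* (-0.36), *Twist1* (-0.56), *Twist2* (-0.11), *Vim* (-0.56) and *Cdh2* (-1.45), in BC XO against BC XY *Snai2* (-0.36), *Vim* (-0.071) and *Cdh2* (-0.32), and in the interaction *Zeb1* (-0.014), *Snai2* (-0.54), *Twist1* (-0.44), *Vim* (-0.45) and *Cdh2* (-1.05).

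Without CB XY 2 and CB XY 3 together, 0 members were called in CB, *Twist2* (0.14) and *Vim* (-0.25) changed sign there, and *Twist1* (-0.013) and *Cdh2* (-0.15) did in XX against XY. There, also with *Col1a1* as a covariate (chosen after seeing the data, as were the next 2 settings), 0 members were called, and the values turned to -0.39 for *Zeb2*, -0.64 for *Twist1*, -0.16 for *Vim*, -1.41 for *Cdh2* and -0.20 for *Fn1*. With the fibroblast level they turned to -0.62 for *Zeb2*, -0.15 for *Snai2*, -0.75 for *Twist1*, -0.36 for *Vim*, -1.68 for *Cdh2* (adjusted p = 0.0149 by limma) and -0.28 for *Fn1*. The slope within groups was called for 0 members by limma and turned to -0.17 for *Zeb1*. With no filter on low values, 3 members were called in BC XX against BC XY, 0 in CB and 0 in BC XX against BC XO. With the 2 groups compared alone in the fit, 0 were called in CB and 2 in BC XX against BC XO. The fibroblast marker level in place of *Col1a1* gave 4 members with a slope within groups, and *Fn1* turned to 0.029. The slope over the lines without BC XX was called for 1 member, and turned to 0.31 for *Snai1* and -0.098 for *Fn1*.

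Leaving out 1 line at a time, the members called ranged from 1 to 2 in XX against XY, 1 to 5 in BC XX against BC XY, 0 to 1 in CB, 0 to 2 in BC XX against BC XO, 0 to 2 for the slope within groups and 2 to 8 for the slope over all lines. In the same fits the log2 values ranged in XX against XY from -0.068 to 0.26 for *Twist1* and from -0.11 to 0.58 for *Cdh2*, and in BC XX against BC XY from -0.27 to 0.076 for *Snai1*. In CB they ranged from -0.51 to 0.061 for *Zeb2*, -0.13 to 0.33 for *Snai2*, -0.65 to 0.32 for *Twist2*, -0.26 to 0.43 for *Vim*, -0.83 to 0.078 for *Cdh2* and -0.29 to 0.045 for *Fn1*. In BC XO against BC XY they ranged from -0.37 to 0.45 for *Snai2*, -0.28 to 0.23 for *Twist1* and -0.036 to 0.74 for *Cdh2*. The slope within groups ranged from -0.14 to 0.26 for *Zeb1* and from -0.018 to 0.27 for *Snai1*.

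Counts over all genes moved by over 1.5 times in some fits. XX against XY gave 797 genes, 337 with *Col1a1*, 357 with the fibroblast level, 1697 with the cross as a covariate and 313 without CB XY 2 and CB XY 3. BC XX against BC XY gave 927, 5 with *Col1a1* and 8 with the fibroblast level, and BC XX against BC XO gave 758, 6 and 11. BC XX against BC XO also gave 411 with no filter and 425 without CB XY 2 and CB XY 3. CB gave 581, 152 with 2 groups alone and 133 without CB XY 2 and CB XY 3. The interaction gave 12, and 2 to 21 under alternatives other than leaving out 1 line. The slope within groups gave 215, 709 on the fibroblast level and 129 without BC XX lines, and that over all lines gave 1425, 2841 and 54. Without CB XY 2 and CB XY 3 the slopes gave 33 and 818 genes. Leaving out 1 line at a time gave 410 to 1746 genes in XX against XY (lowest without BC XX 1), 229 to 1144 in BC XX against BC XY (without BC XX 3), 145 to 653 in CB (without CB XY 1), 5 to 1093 in BC XX against BC XO (without BC XO 1), 0 to 2 in BC XO against BC XY, 0 to 25 in the interaction, 48 to 275 for the slope within groups (without CB XY 2) and 483 to 1822 for that over all lines (without BC XX 3).

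The replicate block could be fitted only without the CB XX lines, whose columns do not carry the numbers of the labels. The block kept the calls of *Zeb1* (1.44, adjusted p = 0.00305), *Zeb2*, *Twist2*, *Vim* and *Fn1* in BC XX against BC XY and of *Zeb1* in BC XX against BC XO (0.99), and changed no other call of a member, but BC XX against BC XO gave 332 genes in place of 758. Count models (edgeR and DESeq2) on recovered reads were not run, because the steps could not be taken as whole reads throughout. In each line 1.42% to 3.03% of the values above 0 lay off the steps, and 10 to 24 values lay below 1 step. The depths and the 3-read floor, which take 1 step as 1 read, are therefore approximate. The groups of 2 and 3 lines and the 2 lines labelled XY whose Y-linked RNA was not above that of XX lines limit what these comparisons resolve.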
